A study of Rattus norvegicus with 6 samples.

Results

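The focal adhesion plaque is the layer of cytoplasmic proteins that ties integrins to the actin cytoskeleton. A list of 38 plaque genes, integrins excluded, was matched by gene symbol to the RNA-seq count table of cultured vascular smooth muscle (VSM) cells, and 37 of the 38 were found among its 14475 genes. Palld, which encodes the actin-binding protein palladin, was not analysed here. The cells came from soleus feed arteries (SFA), the vessels that supply the soleus muscle, of male Fischer 344 rats. The study investigated how mechanical stimuli act on such cells in aging. Its RNA-seq part, used here, compared 3 libraries from young rats (4 months) with 3 from old rats (24 months). Each library was from cells grown in DMEM/F-12 medium with fetal bovine serum. The labels give no transgene, allele or drug in either group, and all 6 libraries were of cultured cells, so they describe cells after growth in culture and not the intact vessel wall. According to the Methods the cells came from 3 rats per group. The passage number is not given in the sources used here, and the p-values measure the spread between these cultures.

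Integrins have no enzymatic activity and no actin-binding site of their own. Talin and kindlin bind the integrin tail and switch the receptor on, vinculin reinforces the link of talin to actin, and a second link runs through the complex of integrin-linked kinase, PINCH and parvin. Kinases and scaffolds such as FAK, Src, paxillin and p130Cas turn load into signals, while tensins, zyxin-family LIM proteins, Ena/VASP proteins, alpha-actinins and filamins build and repair the actin fibers anchored there. In arterial smooth muscle these plaques carry the force of contraction from the actomyosin filaments to the matrix, and several of their genes are targets of serum response factor, which also drives contractile genes.

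Total counts per library ranged from 44235674 to 59700887, and the lowest count of a plaque gene in any library was 486, for Sorbs2, so counting error was small beside the spread between cultures. Plaque genes took 1.65% to 2.13% of the counts in young libraries and 0.953% to 1.28% in old ones. All 12 smooth muscle markers on a fixed list were found, and their summed level was 15197, 21260 and 26845 CPM (counts scaled to a common library size) in young libraries and 8556, 6050 and 5743 CPM in old ones. In 11 of the 12 every old library lay below every young one, against 14.7% of all genes. Des, with means of 1.98 CPM in young and 1.84 CPM in old cells, was the 1 whose groups overlapped. The 12 fibroblast markers summed to 1338, 1249 and 755 CPM in young libraries and 1707, 2740 and 2654 CPM in old ones. The groups of 7 of these markers overlapped, against 70.8% of all genes, and 5 had every old library above every young one, against 14.5%. Mfap5, with means of 607 CPM in young and 544 CPM in old cells, was the 1 fibroblast marker lower in old cells. Of 19 skeletal muscle markers 8 were found, summing to 107, 207 and 140.2 CPM in young and 24.8, 35.0 and 72.1 CPM in old libraries, and in young libraries most of this was the myosins Myh1 and Myh2. Endothelial markers (7 of 12 found) summed to 33.0 to 45.4 CPM and macrophage markers (3 of 11 found) to 5.13 to 16.8 CPM over all libraries. Schwann cell markers (4 of 8 found) summed to 13.7 to 75.7 CPM in young and 55.1 to 86.6 CPM in old libraries. The part of these cell type differences in the results on plaque genes was not tested, and in bulk RNA fewer cells of a type and less RNA per cell cannot be told apart.

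Plaque genes were mostly lower in the old cells. The log2 fold change (old over young, in edgeR with TMM normalization) was below 0 for 33 of 37 plaque genes (89.2%), against 48% of all genes, and its median was -0.52 against 0.02 over all genes. The 3 old libraries all lay below the 3 young libraries in CPM for 23 of 37 genes (62.2%), against 14.7% of all genes. Only Tns2 had all old libraries above all young ones, against 14.5% of all genes. The groups of the other 13 (35.1%) overlapped, against 70.8% of all genes.

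No plaque gene passed the main test, edgeR's quasi-likelihood test, whose calls needed an adjusted p under 0.05 together with a log2 fold change of 1 or more in either direction. It called 1 of the 14475 genes, lower in old cells (0.00691%). At an unadjusted p under 0.05 in the same test, 23 plaque genes (62.2%) were lower, against 11.5% of all genes, and 1 (Tns2) was higher, against 11.2%. At an adjusted p under 0.1 and any fold change, 8 of 37 (21.6%) were lower, against 2.49% of all genes. DESeq2 with the same thresholds as the main test called 7 plaque genes, all lower (18.9%), against 3.31% of all genes: Actn1, Actn4, Lims2, Nexn, Sorbs2, Vcl and Zyx. According to the Methods, the study itself used DESeq2 at these thresholds. Without the fold change threshold, DESeq2 placed 19 (51.4%) lower, against 6.61% of all genes. When old replicate 1 was left out, edgeR's test called 6 of them, Actn1, Lims2, Nexn, Sorbs2, Vcl and Zyx, against 3.47% of all genes called lower, and when any other library was left out it called none.

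**Figure D1:**
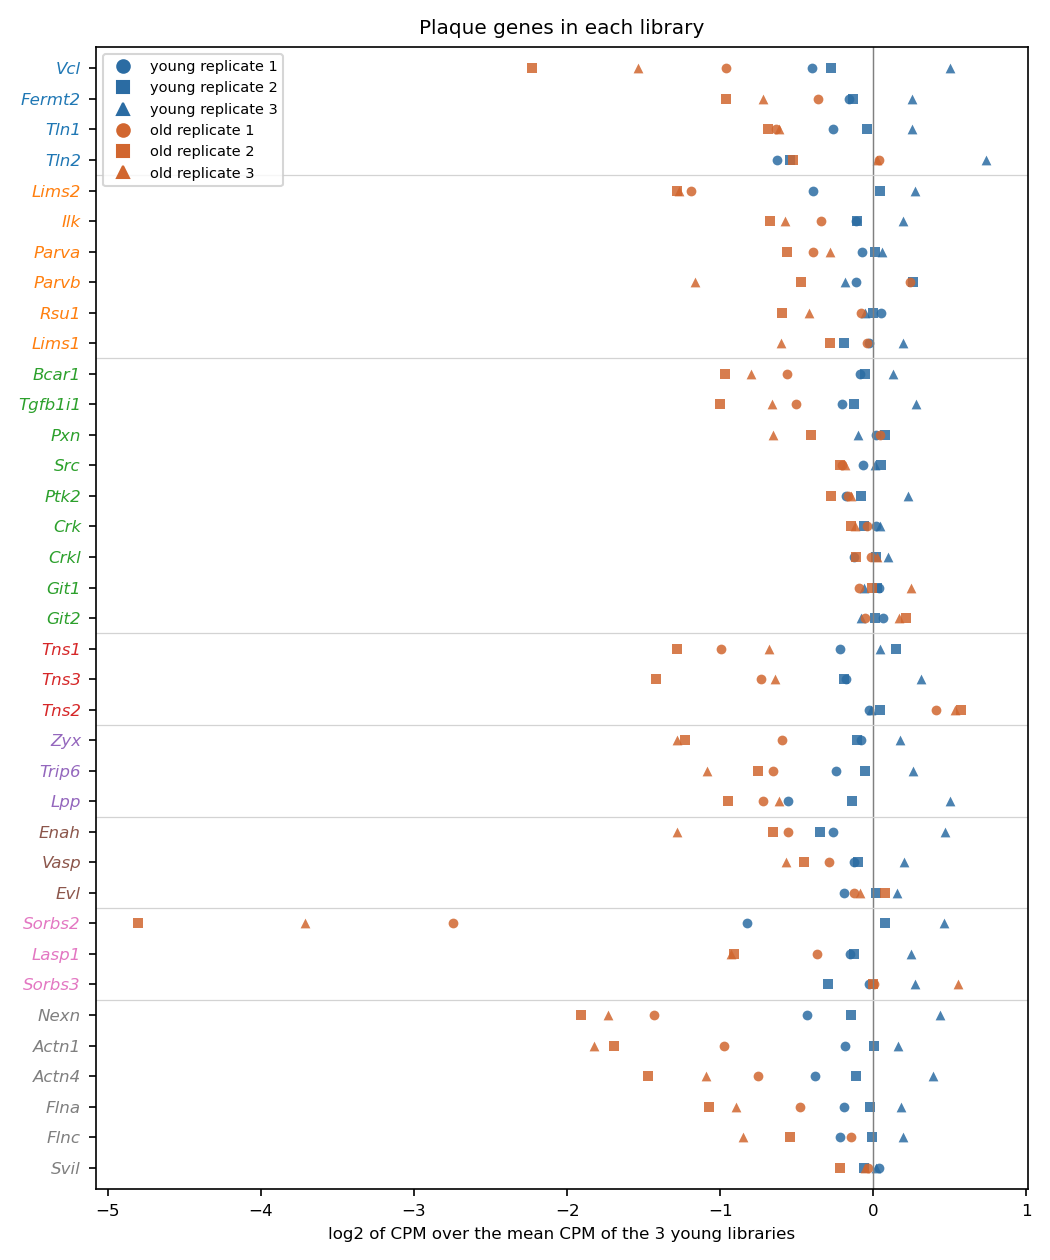
Level of each of the 37 plaque genes in each of the 6 libraries, as the log2 of its CPM over the mean of the 3 young libraries (x axis), with 1 row per gene; gene names are coloured by role, blue symbols are young and orange symbols old libraries. Old symbols lie to the left of all young symbols for 23 genes and to the right for Tns2 alone.

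The order of the libraries within each group was shared by many plaque genes. How many of all genes shared this order was not counted, so it cannot be called particular to plaque genes. Summed over the 37 genes, the level was 16198, 18077 and 22229 CPM in young replicates 1, 2 and 3 and 12959, 9205 and 10262 CPM in old replicates 1, 2 and 3. The groups did not overlap, and the young mean was 1.74 times the old mean. A few genes weigh most in this sum. Flna alone made up 33.5% to 36.4% of it in a library, and Actn1, Actn4, Vcl and Tln1 together 20.4% to 31.5%. Young replicate 3 was the highest young library for 28 of 37 genes and young replicate 1 the lowest for 25. Among old libraries, replicate 1 was the highest for 24 genes and replicate 2 the lowest for 23. Old replicate 1 therefore stood nearest to the young libraries, with a median log2 ratio to the young mean of -0.36, against -0.66 in old replicate 2 and -0.65 in old replicate 3. The smooth muscle marker sum was likewise highest in young replicate 3 among young and in old replicate 1 among old libraries, and the fibroblast marker sum was lowest in both of these. Among old libraries the smooth muscle marker sum was lowest in replicate 3, while the plaque sum was lowest in replicate 2. The coefficient of variation within a group had a median of 13.3% (young) and 17.0% (old) over plaque genes, against 8.15% and 12.5% over the 8843 genes above 10 CPM.

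**Figure D2:**
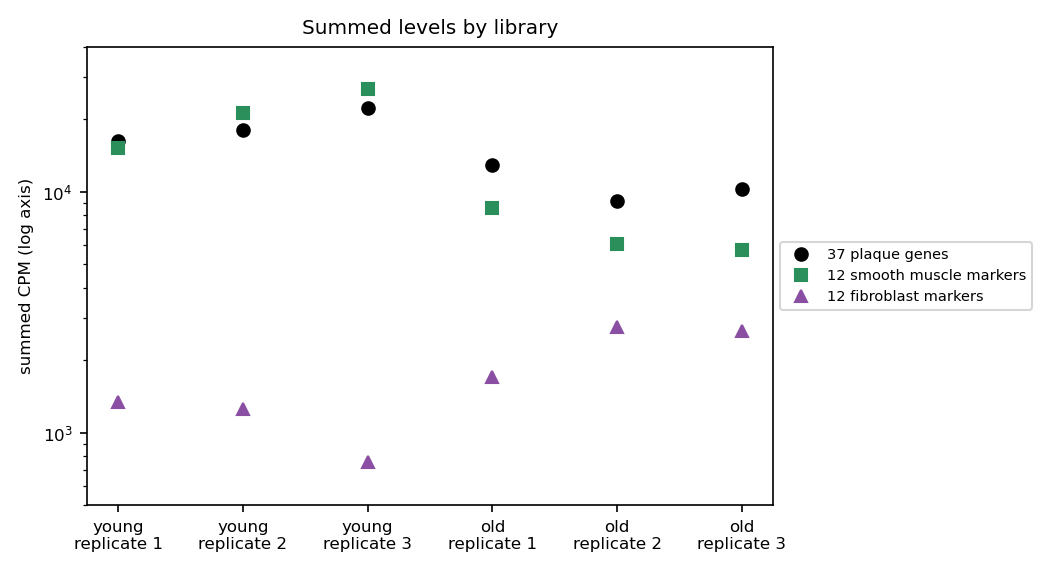
Summed CPM (log axis) of the 37 plaque genes, 12 smooth muscle markers and 12 fibroblast markers in each library; each point is 1 library. The plaque sum lies between 16198 and 22229 CPM in young and between 9205 and 12959 CPM in old libraries, and the fibroblast sum is lower in every young library than in any old one.

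Promoters were read for the genes that DESeq2 called, because their counts passed both thresholds of that test. RefSeq windows (GRCr8, 250 bases before to 50 after the start) matched 28 of the 37 genes, with 34 windows because 6 genes had more than 1. No window was matched for Actn4, Fermt2, Lasp1, Lpp, Parva, Ptk2, Sorbs2, Sorbs3 and Tns1. Both strands were searched for the MCAT motif CATTCC, bound by TEAD factors, and for the CArG box (CC, then 6 bases that are A or T, then GG), bound by serum response factor. Lims2, Nexn, Vcl and Zyx each had 1 window with an MCAT motif and none with a CArG box, and the windows of Actn1 held neither. Trip6, of the zyxin family, held both motifs and Svil, an actin crosslinker, held a CArG box, and both are shown for comparison. Stretches run 5′ to 3′ in the direction of the gene, with 30 bases on each side of the motif unless the start site comes first, and capitals mark the motif, which reads GGAATG where MCAT lies on the other strand.
Lims2, chr18:23837573-23837638, plus strand: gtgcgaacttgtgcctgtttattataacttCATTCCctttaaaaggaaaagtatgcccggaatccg
Nexn, chr2:243878218-243878283, minus strand: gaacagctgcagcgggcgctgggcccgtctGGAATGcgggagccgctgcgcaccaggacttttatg
Vcl, chr15:3404932-3404997, minus strand: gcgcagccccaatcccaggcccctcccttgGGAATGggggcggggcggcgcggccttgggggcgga
Zyx, chr4:72203765-72203830, plus strand: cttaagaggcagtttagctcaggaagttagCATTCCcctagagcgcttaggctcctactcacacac
Trip6, chr12:25022878-25022958, plus strand: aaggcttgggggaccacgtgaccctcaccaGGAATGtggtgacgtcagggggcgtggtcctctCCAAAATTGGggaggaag
Svil, chr17:57462661-57462700, minus strand: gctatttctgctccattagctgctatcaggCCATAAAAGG
The first base of the motif lay at -101 from the start in Lims2 and in Nexn, at -167 in Vcl and at -205 in 1 of the windows of Zyx. In Trip6 the MCAT motif began at -51 and the CArG box at -18, and in Svil the CArG box began at -10. MCAT was found in 8 of the 34 plaque windows (23.5%), the others being those of Evl, Flna and Flnc, against 14.2% of all 33469 windows and 11.2% of the 12022 windows of genes in the count table. CArG was found in 3 of the 34 (8.82%), the third being that of Rsu1, against 1.64% and 1.3%. The genes with a CArG box had log2 fold changes of -0.82 for Trip6, -0.35 for Rsu1 and -0.10 for Svil. Those of the 8 genes with an MCAT motif ran from -1.68 for Nexn to -0.05 for Evl. These letters are a description of the windows and not evidence that a factor bound there.

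Of the proteins that link integrins to actin, 3 of 4 had old libraries entirely below young ones, against 14.7% of all genes. Vcl (ENSRNOG00000010765) encodes vinculin, which binds talin and actin and strengthens the link under load. Its level was 1294, 1414 and 2420.3 CPM in young libraries and 879, 364 and 590.1 CPM in old ones. Every old library lay below every young one, young replicate 3 stood well above the other two, and the young mean was 2.80 times the old mean. The log2 fold change of Vcl was -1.48 ± 0.39 (SE), with an adjusted p of 0.116 in edgeR's quasi-likelihood test and 0.00264 in DESeq2. Tln1, the main talin outside muscle and brain, was 846 ± 154 CPM in young and 540.5 ± 12.7 CPM in old cells (mean ± SD, n = 3), a log2 fold change of -0.65 with an adjusted p of 0.105 in edgeR and 0.00303 in DESeq2. Fermt2, which encodes kindlin-2, the co-activator of integrins, was 712 ± 119 and 451 ± 96.0 CPM, a log2 fold change of -0.66 with an adjusted p of 0.144 in edgeR and 0.03 in DESeq2. Tln2, the second talin, was 53.4, 56.7 and 137.6 CPM in young and 84.9, 57.4 and 84.1 CPM in old libraries. Those groups of Tln2 overlapped, since young replicate 3 was the highest of all libraries and the other young libraries were the lowest. Its log2 fold change was -0.13 ± 0.39 (edgeR adjusted p 0.862).

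Within the complex of integrin-linked kinase, PINCH and parvin, all 6 genes had a log2 fold change below 0, against 48% of all genes. In 4 of them every old library lay below every young one, against 14.7% of all genes. Lims2 (ENSRNOG00000016021) encodes PINCH-2, a LIM-only adaptor that binds integrin-linked kinase, and carries the MCAT motif shown above. It was at 45.9, 62.0 and 72.7 CPM in young libraries and 26.4, 24.8 and 25.0 CPM in old ones. All 3 old libraries lay close together and below the lowest young library, and the mean was 2.37-fold lower in old cells. Its log2 fold change of -1.25 ± 0.17 (SE) gave the lowest adjusted p of any plaque gene in edgeR, 0.0531, and 1.90e-07 in DESeq2. Lims1 (ENSRNOG00000037765) encodes PINCH-1, which takes the same place in the complex. Its libraries read 297, 265 and 345 CPM in young and 294, 248 and 199 CPM in old cells. Those groups overlapped, as old replicate 1 lay between young replicates 1 and 2, and the log2 fold change was -0.29 ± 0.18 (edgeR adjusted p 0.353). Ilk, the kinase-like core of the complex, had means of 343 and 239 CPM (log2 fold change -0.52), and Parva, which encodes the actin-binding alpha-parvin, had means of 331 and 249 CPM (-0.41). Rsu1, a partner of PINCH-1, had a log2 fold change of -0.35, and Parvb, the second parvin, had overlapping groups and -0.35 as well. Ilk and Parva had DESeq2 adjusted p of 0.0161 and 0.0109, and none of the 4 had an edgeR adjusted p under 0.1.

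The kinases and signaling scaffolds had the median log2 fold change nearest to 0 of the 8 roles, -0.19. The groups overlapped for 6 of their 9 genes, against 70.8% of all genes. Bcar1 encodes p130Cas, a scaffold that is phosphorylated by Src when it is stretched. It was at 132, 135 and 153 CPM in young libraries and 94.9, 71.5 and 80.5 CPM in old ones, so that the groups were well apart. The log2 fold change of Bcar1 was -0.77 ± 0.13 (SE), with an adjusted p of 0.0636 in edgeR and 7.71e-05 in DESeq2, below the fold change threshold of both tests. Tgfb1i1, which encodes Hic-5, the paxillin relative of smooth muscle, was 242 ± 44.9 and 148 ± 25.2 CPM, a log2 fold change of -0.71 (adjusted p 0.114 in edgeR and 0.0126 in DESeq2). Pxn itself, encoding paxillin, had means of 58.9 and 47.5 CPM and overlapping groups (-0.31). Src had all old libraries (80.9 to 82.7 CPM) below all young ones (90.1 to 97.6 CPM), a log2 fold change of only -0.20. Ptk2, the gene of focal adhesion kinase (FAK), had -0.19, and the adaptor genes Crk and Crkl had -0.10 and -0.03. Git2, which encodes an Arf GTPase-activating scaffold that binds paxillin, had the highest log2 fold change of this role and was at 53.5, 51.6 and 48.5 CPM in young and 49.2, 59.3 and 57.4 CPM in old libraries. Its groups overlapped, with a log2 fold change of 0.11 ± 0.10, and Git1 had 0.05.

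**Figure D3:**
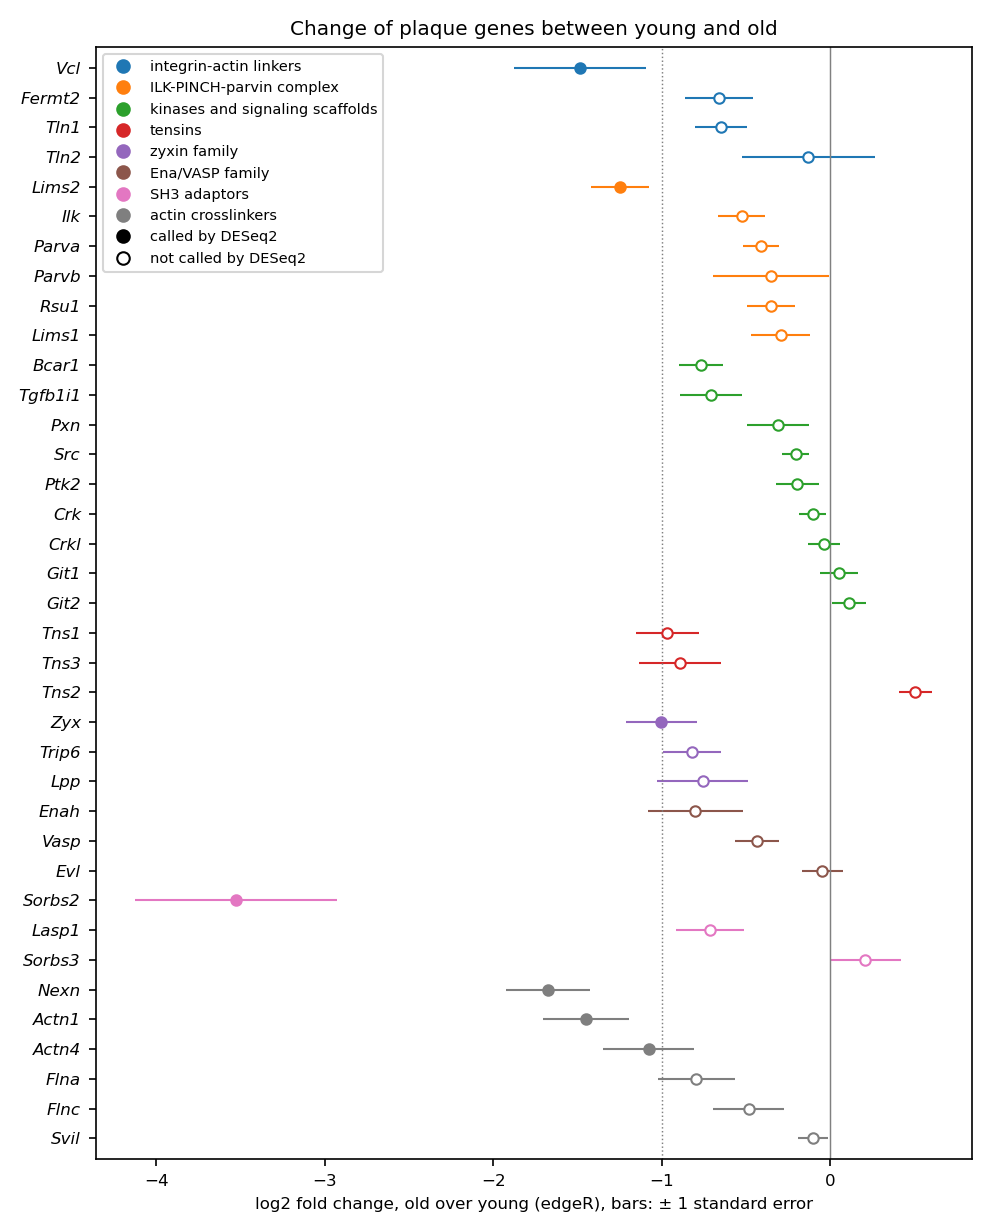
Log2 fold change (old over young, x axis) of each of the 37 plaque genes with its standard error, by role, with the genes that DESeq2 called marked. The points run from -3.52 for Sorbs2 to 0.51 for Tns2, and 33 lie to the left of 0.

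The 3 tensins, which join the integrin tail to actin fibers in mature adhesions, differed in direction. Tns1 (ENSRNOG00000014182) was at 560.4, 723 and 669 CPM in young libraries and 327, 268 and 406 CPM in old ones. Every old library lay below the young ones, and the log2 fold change was -0.96 ± 0.19 (SE), with an adjusted p of 0.0743 in edgeR and 0.000136 in DESeq2. Tns3 was likewise lower, with means of 139.8 and 75.3 CPM and a log2 fold change of -0.89 (edgeR adjusted p 0.123, DESeq2 0.0135). Tns2 (ENSRNOG00000010588), which encodes the tensin with a C1 domain, was at 353, 370.1 and 356 CPM in young libraries and 478, 535 and 519.7 CPM in old ones. It was the sole plaque gene with every old library above every young one, and both groups were tight. The mean of Tns2 was 1.42-fold higher in old cells, a log2 fold change of 0.51 ± 0.10 with an adjusted p of 0.0743 in edgeR and 1.98e-06 in DESeq2, below the fold change threshold of both tests.

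The zyxin family are LIM proteins that gather at strained actin fibers. All 3 of its genes had old libraries below young ones, against 14.7% of all genes. Zyx, the gene of zyxin, was at 399, 392 and 476 CPM in young libraries and 279, 179.8 and 174 CPM in old ones. Old replicate 1 lay between the other old libraries and the young group. The log2 fold change of Zyx was -1.001 ± 0.21 (SE), just past the threshold of 1, with an adjusted p of 0.0826 in edgeR and 0.000676 in DESeq2. Trip6 was 62.0 ± 11.1 in young and 35.1 ± 5.33 CPM in old cells, a log2 fold change of -0.82 (edgeR adjusted p 0.0823, DESeq2 0.00181). Lpp, abundant in smooth muscle, was at 120.2, 161 and 251 CPM in young and 107.6, 91.9 and 116 CPM in old libraries. The highest old library came close to the lowest young one, and the log2 fold change was -0.76 ± 0.27 (edgeR adjusted p 0.18, DESeq2 0.0691).

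The Ena/VASP proteins, which lengthen actin filaments at adhesions, included 1 gene with little difference. Enah, the gene of Mena, was at 80.6, 75.9 and 133 CPM in young libraries and 65.6, 61.4 and 39.7 CPM in old ones, with a log2 fold change of -0.80 ± 0.28 (edgeR adjusted p 0.178, DESeq2 0.0661). Vasp was at 175, 178 and 219 CPM in young and 156, 139 and 128 CPM in old libraries, with a log2 fold change of -0.43 ± 0.13 (edgeR adjusted p 0.143, DESeq2 0.047). In both genes every old library lay below the young ones, and young replicate 3 was the highest. Evl, the third of the family, was at 20.3, 23.5 and 25.9 CPM in young and 21.3, 24.5 and 21.9 CPM in old libraries. The groups of Evl overlapped throughout, with a log2 fold change of -0.05 ± 0.12 (edgeR adjusted p 0.846).

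Among the adaptors with SH3 domains, Sorbs2 had the largest age difference of all plaque genes. Sorbs2 (ENSRNOG00000013391) encodes ArgBP2, an adaptor of stress fibers that is most abundant in muscle. It was at 147, 276 and 360.0 CPM in young libraries and 38.8, 9.35 and 19.9 CPM in old ones. The lowest young library was well above the highest old one, and the spread within each group was wide. The mean was 11.5-fold lower in old cells, a log2 fold change of -3.52 ± 0.60 (SE) with an adjusted p of 0.0636 in edgeR and 4.31e-09 in DESeq2. Leaving out each library in turn gave log2 fold changes from -4.16 to -3.16. The skeletal muscle markers Myh1 (58.9 to 137.8 CPM in young, 2.00 to 27.8 CPM in old libraries) and Myh2 (29.6 to 51.7 and 0.846 to 11.0 CPM) were also lower in every old library. The other 6 skeletal muscle markers had overlapping groups, 3 with log2 fold changes below 0 and 3 above, up to 0.92 for Tnnt3. Of the 12 smooth muscle markers, 11 had every old library below every young one, against 14.7% of all genes. Log2 fold changes of the 12 ran from -3.95 for Actg2 to -0.11 for Des. The part of the skeletal or smooth muscle markers in the difference of Sorbs2 was not tested. Sorbs3, which encodes vinexin, a vinculin-binding relative of Sorbs2, was at 30.5, 25.4 and 37.5 CPM in young and 31.3, 31.1 and 45.7 CPM in old libraries. Its groups overlapped, and the log2 fold change was 0.21 ± 0.21 (edgeR adjusted p 0.563). Lasp1, an actin-binding LIM and SH3 protein, was lower in every old library, with a log2 fold change of -0.71 (edgeR adjusted p 0.13, DESeq2 0.0186).

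The actin crosslinkers had the lowest median of the 8 roles, -0.93, and held 3 of the 7 genes called by DESeq2. Nexn (ENSRNOG00000012512) encodes nexilin, an actin-filament-binding protein of muscle and adhesions. It was at 124.6, 152 and 227 CPM in young libraries and 62.3, 44.7 and 50.6 CPM in old ones, with no overlap. The mean of Nexn was 3.20-fold lower in old cells, a log2 fold change of -1.68 ± 0.25 (SE) with an adjusted p of 0.0557 in edgeR and 1.41e-07 in DESeq2. Actn1, the alpha-actinin of non-muscle and smooth muscle cells, was at 1266, 1440.3 and 1607 CPM in young and 730.3, 444 and 407 CPM in old libraries. Each old library lay below the young range, and the log2 fold change was -1.45 ± 0.26 (edgeR adjusted p 0.0644, DESeq2 4.40e-06). Actn4, the second non-muscle alpha-actinin, was at 1150.0, 1389 and 1961 CPM in young and 891, 540.5 and 703 CPM in old libraries. Its log2 fold change was -1.08 ± 0.27 (edgeR adjusted p 0.11, DESeq2 0.00291), and old replicate 1 was again the nearest to the young group.

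Filamins and supervillin were the remaining crosslinkers, and none passed the fold change threshold. Flna, which encodes filamin A, took 33.5% to 36.4% of the summed plaque CPM of a library, a share that also depends on gene length. Its level was 5751, 6476 and 7452 CPM in young libraries and 4716, 3123 and 3523 CPM in old ones, with no overlap and a log2 fold change of -0.79 ± 0.23 (edgeR adjusted p 0.134, DESeq2 0.00366). Flnc, the filamin of striated muscle, was at 455, 526 and 604 CPM in young and 478, 363 and 292 CPM in old libraries. Old replicate 1 lay inside the young range of Flnc, and the log2 fold change was -0.48 ± 0.21 (edgeR adjusted p 0.231, DESeq2 0.154). Svil, the gene of supervillin, was at 147.6, 138 and 145 CPM in young and 140.2, 123 and 138.1 CPM in old libraries, which overlapped, with a log2 fold change of -0.10 ± 0.09 (edgeR adjusted p 0.522).

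Ratios between related plaque genes were compared within each library for 15 pairs, so that a shift shared by both genes cancels. With 3 libraries against 3 the exact permutation test (two-sided) cannot give a p below 0.1, and adjusted over the 15 pairs no p was below 0.3. In 5 of the 15 pairs the groups did not overlap, each with an exact permutation p of 0.1. The share among pairs of other genes was not counted, so this number cannot be called particular to plaque genes. For single genes, the groups of 70.8% of all genes overlapped. The log2 ratio of Tns2 to Tns1 was -0.67, -0.97 and -0.91 in young and 0.55, 1.00 and 0.36 in old libraries. Each old library lay above each young one, a difference of 1.48 on the log2 scale (2.80-fold), from which gene length cancels. The log2 ratio of Sorbs3 to Sorbs2 was -2.27, -3.44 and -3.26 in young and -0.31, 1.73 and 1.20 in old libraries, a difference of 3.87. The ratio of Lims2 to Lims1 was 1.89-fold lower in old cells, at log2 -2.69, -2.10 and -2.25 in young and -3.48, -3.33 and -2.99 in old libraries. All 3 old libraries thus held less PINCH-2 per PINCH-1 transcript than any young one. Flna to Flnc differed by -0.30 and Evl to Vasp by 0.39 on the log2 scale. In the other 10 pairs, among them Actn4 to Actn1 (0.42), Tln2 to Tln1 (0.62), Tgfb1i1 to Pxn (-0.37) and Trip6 to Zyx (0.21), the groups overlapped.

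**Figure D4:**
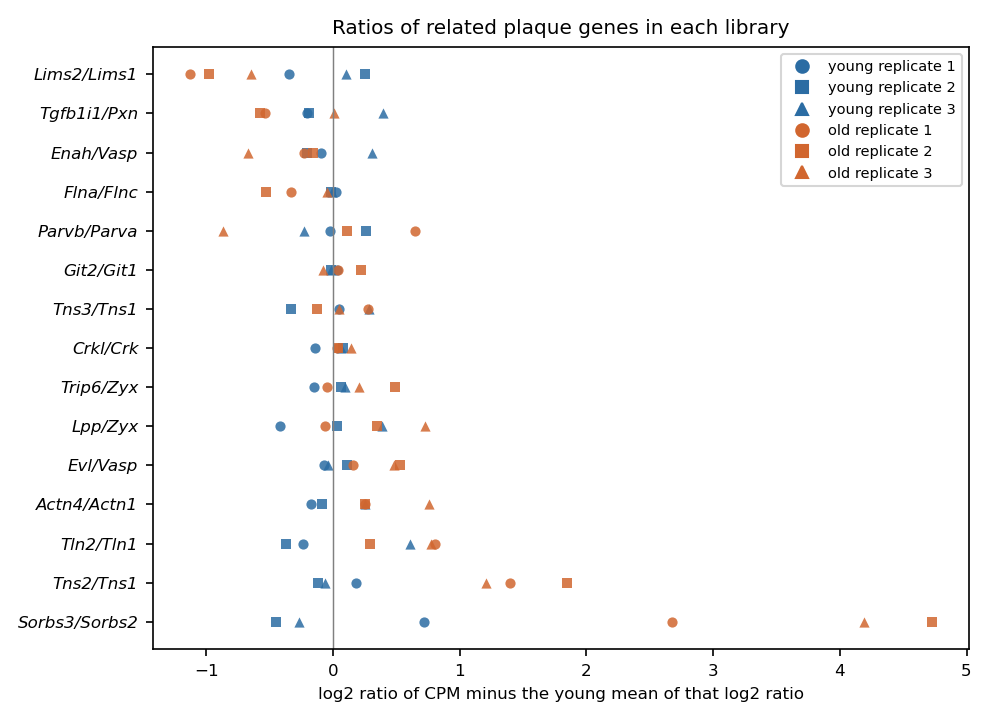
Log2 ratio of the CPM of 2 related plaque genes in each library, minus the mean of that log2 ratio in the 3 young libraries (x axis), for 15 pairs. The old libraries stand apart from the young ones to the right for Sorbs3/Sorbs2, Tns2/Tns1 and Evl/Vasp and to the left for Lims2/Lims1 and Flna/Flnc.

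Other genes of the integrin adhesion machinery, from a separate list of 52 genes of which 47 were found, were also lower more often than higher. Their median log2 fold change was -0.21, with 33 of 47 lower, against 48% of all genes, and 14 higher. At an unadjusted p under 0.05 in edgeR's test 15 of 47 were lower, against 11.5% of all genes, and 4 were higher, against 11.2%, and none was called. DESeq2's calls included Kank1, which was lower, and Elmo1 and Fyn, which were higher, where 2.25% of all genes were called higher. Kank1, a regulator at the rim of adhesions, was at 52.1, 62.6 and 68.4 CPM in young libraries and 30.9, 13.3 and 14.2 CPM in old ones (log2 fold change -1.65, DESeq2 adjusted p 0.000198). Fyn, a Src-family kinase, was at 38.2, 38.8 and 41.1 CPM in young and 69.0, 89.0 and 87.0 CPM in old libraries (1.05, DESeq2 adjusted p 4.55e-10). In Kank1 and in Fyn no old library reached the young range. Elmo1, an adaptor that works with the Rac activator DOCK, was 1.34 to 3.23 CPM in young and 7.56 to 8.48 CPM in old libraries (1.74). Low log2 fold changes were also those of Synpo (-1.16), with overlapping groups, and Fblim1 (-0.89), which encodes migfilin, and the next highest those of Asap3 (0.61) and Efs (0.55).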

How the data were processed

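PolyA RNA of cultured VSM cells from young and old SFA was sequenced as stranded, paired-end libraries, 3 per group. The authors deposited raw counts, whole numbers per gene and library. The submitters' processing notes name cutadapt 3.5, Trim Galore 0.6.7, FastQC 0.11.9, MultiQC 1.27.1, STAR 2.7.10b, featureCounts from Subread 2.0.8 and DESeq2 1.46.0, and the Methods name a RefSeq annotation, while the genes carry Ensembl identifiers (1518 of them without a symbol). How the counting treated strand, multi-mapped reads and mates is not given in the sources used here. Counts of close paralogs and of genes that overlap on opposite strands are therefore uncertain. Between 68.7% and 71.1% of the counts below 20 in a library were even, which would arise if both mates of a pair were counted. The total count of each library was also above the highest sequencing depth per sample given in the Methods.

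All 14475 genes were fitted with edgeR 4.0.16 (R 4.3.3) after TMM scaling, with age group alone in the model. The quasi-likelihood F test was used, p-values were adjusted over all genes by Benjamini-Hochberg, and a call needed an adjusted p under 0.05 together with a log2 fold change of 1 or more in either direction. The standard error is the size of the log2 fold change over the square root of F. CPM used TMM-scaled library sizes, and no gene lengths were used, so CPM do not rank the transcript levels of different genes. DESeq2 1.42.0 (Wald test, independent filtering for an adjusted p of 0.05, 292 genes left without one) was an alternative, as was limma-voom from limma 3.58.1, with other normalizations, filters and thresholds, halved counts, the replicate number as a block and each library left out in turn. Pair ratios were compared by exact permutation tests. The scripts were tested on simulated data. No 2 libraries agreed within sampling noise.

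The plaque genes, roles, pairs and marker lists were chosen with earlier results of these data known. Values per library are given for genes called by edgeR or DESeq2, both genes of a pair with non-overlapping ratios, and the highest and lowest log2 fold change in each role. Of the other adhesion genes, those called by DESeq2 and the 4 lowest and 4 highest above 1 CPM are named, apart from 1 gene that is not reported here. The sequences of Trip6 and Svil were added after their motifs were seen.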

Additional observations from a re-analysis of the deposited data

How the results depend on the processing

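Calls of single plaque genes depended on the test, as did calls over all genes, and the direction of plaque genes mostly did not. Against 0 genes called by edgeR's quasi-likelihood test, 7 were called by DESeq2 and the same 7 by edgeR's likelihood ratio test, 2 (Lims2 and Nexn) with at least 10 counts required in each library and 5 at an adjusted p under 0.1. Over all 14475 genes the main test called 1, DESeq2 805 and the likelihood ratio test 724. The count filter gave 97 and the adjusted p under 0.1 gave 381. The number of plaque genes called was 0 by limma-voom, with RLE size factors, with library size only and with halved counts. Of all genes limma-voom called 0 and each of the others called 1. Leaving out 1 library gave 0 to 6 edgeR calls of plaque genes, all 6 of them without old replicate 1. That fit called 732 of all genes, and the fits without any other library called 0 to 5. DESeq2, refitted without each library (chosen after seeing the data), called 5 to 8 plaque genes and 551 to 1377 of all genes. Without young replicate 3 or old replicate 2 Actn4 and Zyx were not called, Zyx also not without old replicate 3. Tns1 was added without young replicate 1 or old replicate 3, and Tns3 without the latter. The number of genes lower in old cells stayed between 30 and 34, and the median log2 fold change between -0.69 and -0.42. A replicate block in edgeR called 0 plaque genes and 1 of all genes. It gave 33 plaque genes lower, a median of -0.52 and 21 plaque genes lower with an unadjusted p under 0.05. Whether replicate numbers pair the cultures is not settled by the correlations, since deviations within a group of 3 libraries depend on each other. Deviations of same-numbered libraries correlated at 0.0638, 0.311 and 0.289. Young replicates 2 and 3 correlated best with the old library of the same number, and young replicate 1 with old replicate 2 (0.346). Leaving out 1 library turned the sign of 4 small log2 fold changes, whose ranges were -0.37 to 0.45 for Tln2, -0.10 to 0.0185 for Crkl, -0.0525 to 0.12 for Git1 and -0.14 to 0.0401 for Evl. It also turned 4 log2 ratio differences, with ranges of -0.38 to 0.38 for Parvb/Parva, -0.0203 to 0.13 for Git2/Git1, -0.10 to 0.21 for Tns3/Tns1 and -0.00018 to 0.11 for Crkl/Crk. The cause was not tested.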
